A study of Mus musculus with 16 samples.

Results

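The collagens, laminins and integrins of mIMCD3 cells, an epithelial line derived from the inner medulla of the mouse kidney, where urine is concentrated, were followed through drug treatment, hyperosmotic stress and loss of Nrf2. The genes were taken by symbol from the count tables: every collagen chain, every laminin chain, every gene named as an integrin alpha or beta subunit, and fibronectin, the 2 nidogens and perlecan. This rule gave 88 of the 55367 genes listed. They comprised 44 collagen chains, 11 laminin chains, 4 genes for fibronectin, nidogens and perlecan, 18 integrin alpha subunits and 9 integrin beta subunits. The remaining 2, Itgb1bp2 and Itgbl1, are not integrin chains and were kept because the rule took them. Of the 88, 71 had enough counts to be tested, 60 reached 1 CPM (a count scaled to library size by edgeR's TMM method) in both libraries of at least 1 group, and 3 had no count in any library.

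RNA-seq was available for 16 libraries, 2 for each of 8 groups. WT cells received DMSO, the solvent, or 10 µM SFN (sulforaphane, an electrophile that releases Nrf2 from its inhibitor Keap1) for 5 h and were then sampled in isosmotic medium or after 1 h or 6 h of hyperosmotic stress (600 mOsm per the series' design text, which describes the 1 h groups). Nrf2-/- cells, edited with CRISPR/Cas9, all received SFN and were sampled in isosmotic medium or after 1 h of stress. No Nrf2-/- library without SFN or at 6 h was analysed here, so genotype was compared under SFN alone. Whether the Nrf2-/- line is a single clone is not given in the sources used here, so an effect of Nrf2 loss and a difference between 2 lines cannot be told apart. The study describes its replicates as biological, but neither it nor the labels say whether the 2 libraries of a group came from separate cultures, so the p-values measure the spread between these libraries.

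Collagens are trimers of chains wound into a triple helix. Collagen IV forms the sheet of the basement membrane beneath an epithelium, and its chains combine into a small set of trimers, of which the one made of alpha 1 and alpha 2 is the common form in most tissues and the one made of alpha 3, alpha 4 and alpha 5 is best known from the kidney glomerulus. Laminins are trimers of an alpha, a beta and a gamma chain that form a second sheet, tied to collagen IV by nidogen and perlecan. Integrins are pairs of an alpha and a beta subunit that hold cells to these sheets and to fibronectin.

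Total counts lay between 34484296 and 50774875 per library. The targeted gene, Nfe2l2 (Nrf2), had 64.0 to 149 CPM in the 12 WT libraries and 11.0 to 11.6 CPM in the 4 Nrf2-/- libraries. Nqo1, a target of Nrf2, was at 2.55 and 2.85 CPM in isosmotic WT cells with DMSO, at 7.19 and 7.38 with SFN, and without a count in isosmotic Nrf2-/- cells with SFN. Of 18 markers of collecting duct and epithelium, 10 to 12 reached 1 CPM in a group, among them the keratins Krt8 and Krt18 in every library. The water channels Aqp2 and Aqp4 and the vasopressin receptor Avpr2, which define the principal cell of the collecting duct, were at most 0.323 CPM. Aqp3, Hsd11b2 and Elf5 were at most 0.836 CPM. Other markers of the duct were present, with Tfcp2l1 at 24.3 to 81.3 CPM over all libraries. Gata3 was at 2.59 to 6.65 CPM in WT and at most 0.882 in Nrf2-/- libraries, and Scnn1a at 0.926 to 2.91 and 0.683 to 1.05 CPM. The fibroblast markers Dcn, Lum and Pdgfra were near 0, and Vim, which this line expresses, was at 909 to 1423 CPM in WT and 151 to 225 CPM in Nrf2-/- libraries. The 2 Nrf2-/- libraries at 1 h differed from each other more than any other pair, with a biological coefficient of variation of 0.348 against 0.0393 to 0.128, and all groups shared a single estimate of spread per gene.

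In isosmotic WT cells with DMSO, 44 of the 88 genes reached 1 CPM in both libraries. Per kilobase of exon, the scale on which genes can be set beside each other, the highest was Itgb1, the beta subunit shared by the largest group of integrins, at 351 and 349 CPM per kb. Itga3, its partner in the laminin-binding integrin alpha 3 beta 1, followed at 181 and 171 CPM per kb, and fibronectin (Fn1) at 173 and 144. These levels of Itga3 and Fn1 overlapped, so their order was not set by the 2 libraries.

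Col18a1, the collagen that carries endostatin, was the leading collagen at 105 and 101 CPM per kb. The laminin chains Lamb3, Lama5, Lamc1 and Lamb1 lay between 36.9 and 58.9 CPM per kb, together with perlecan (Hspg2, 56.9 and 39.8) and Itgb5 (37.2 and 39.5), and neighbours in this stretch of the order overlapped. Col4a1 and Col4a2 stood at 26.1 and 20.7 and at 17.4 and 15.6 CPM per kb, above the other 4 collagen IV chains. The fibril collagens of connective tissue were low or absent, with Col1a1 at 3.10 and 2.70 CPM and Col3a1 at 0 counts in both libraries.

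**Figure D1:**
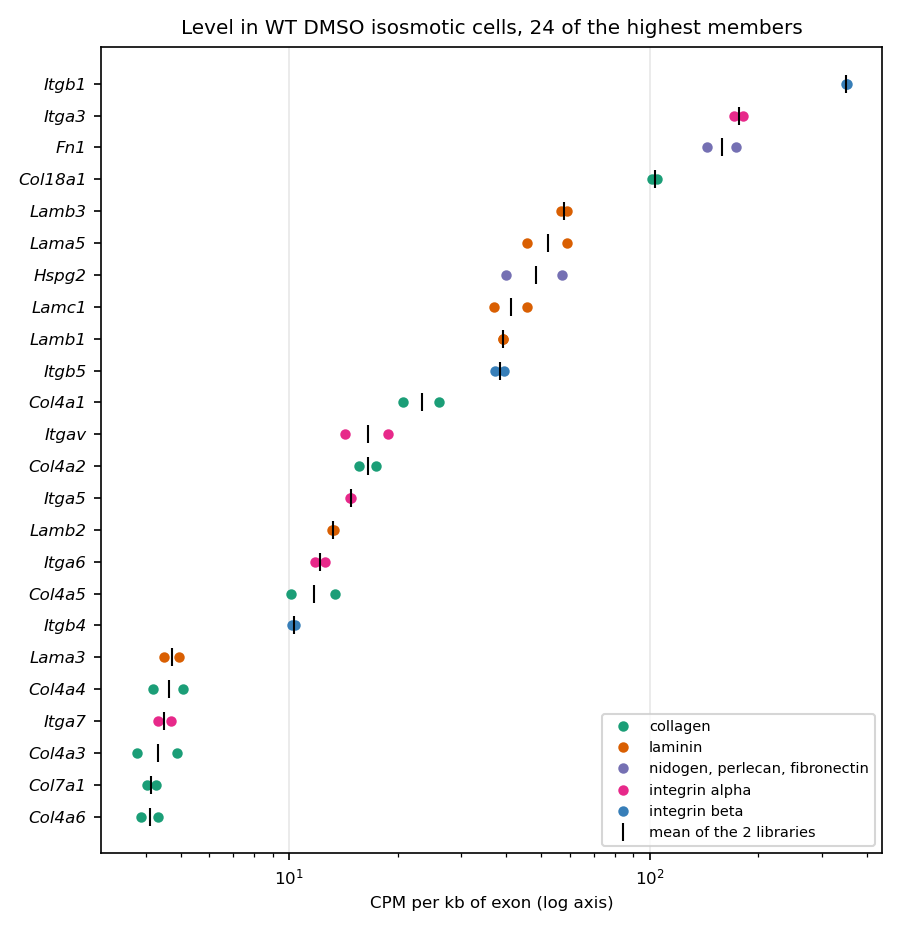
Level of 24 of the highest members in isosmotic WT cells with DMSO, in CPM per kb of exon on a log axis. Each point is a library, the tick is the mean of 2, and colour gives the gene class; Itgb1 is highest at a mean of 350 and Itga3, Fn1 and Col18a1 follow.

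The 6 collagen IV genes lie in 3 pairs, each pair head to head, and the first pair carried the largest difference seen here. Col4a1 (minus strand, chr8:11198423-11312826) and Col4a2 (plus strand, chr8:11312805-11449287) overlap at their starts by 22 bases, Col4a4 and Col4a3 on chromosome 1 start 71 bases apart, and Col4a6 and Col4a5 on the X chromosome start 1308 bases apart (GENCODE M21 on GRCm38, also called mm10). The stretches at the starts of the first 2 pairs are shown because the genes of a pair are read in opposite directions there. For Col4a1 and Col4a2 these are the bases around the overlapping starts, and for Col4a4 and Col4a3 the bases between the starts. The sequence is that of the plus strand of GRCm38.p6, taken from RefSeq promoter windows, and capitals mark the 22 bases that both annotated genes include.
Col4a1/Col4a2, chr8:11312801-11312830: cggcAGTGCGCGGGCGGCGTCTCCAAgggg
Col4a4/Col4a3, chr1:82586850-82586920: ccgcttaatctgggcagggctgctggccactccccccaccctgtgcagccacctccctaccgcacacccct

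SFN against DMSO was compared to find which genes the drug changed. In isosmotic WT cells 12 of the 71 genes tested differed, 3 higher and 9 lower with SFN (edgeR's quasi-likelihood test, Benjamini-Hochberg adjusted p under 0.05 over all genes), against 2.84% of all genes tested (1.09% higher and 1.76% lower). Lama3 and Lamb3, chains of epithelial laminin, fell. Itgb6, the beta subunit of the integrin that binds latent TGF-beta, fell too. Both main collagen IV chains rose. In bulk RNA, fewer cells expressing a gene and less RNA per cell cannot be told apart.

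Lamb3, a beta chain, was at 374 and 389 CPM with DMSO and at 249 and 224 with SFN, and Lama3, an alpha chain, at 53.3 and 48.3 and at 33.4 and 35.6. For each of them both SFN libraries lay below both DMSO libraries. The log2 fold changes were -0.69 for Lamb3 (standard error 0.11, adjusted p = 0.00349) and -0.56 for Lama3 (standard error 0.09, adjusted p = 0.00388). Lama5 did not pass the test here. This chain, with 671 and 518 CPM with DMSO, had 681 and 701 with SFN (0.22 on the log2 scale, standard error 0.12, adjusted p = 0.428).

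Itgb6 was at 22.5 and 20.6 CPM with DMSO and at 7.05 and 9.82 with SFN, with no overlap (log2 fold change -1.35, standard error 0.16, adjusted p = 0.000171). Itga2, the alpha subunit of a collagen receptor, was at 29.2 and 22.7 CPM with DMSO and at 12.3 and 15.9 with SFN (-0.87 on the log2 scale, standard error 0.21, adjusted p = 0.0398). Col27a1, a fibrillar collagen at low level, was at 6.29 and 5.44 CPM and fell to 1.82 and 1.74 (log2 fold change -1.72, standard error 0.29, adjusted p = 0.00427). In each of these 3 genes the drug-treated libraries were the lower ones. Smaller decreases were called for Itga7, a laminin receptor subunit (-0.60 on the log2 scale), Col4a4 (-0.52) and Itgb5, which pairs with Itgav to bind vitronectin (-0.42).

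The increases were smaller in fold than the decrease of Itgb6. Col4a1 was at 195 and 154 CPM with DMSO and at 271 and 230 with SFN, and Col4a2 at 115 and 104 and at 177 and 151. Both libraries with SFN were above both with DMSO for either gene, with log2 fold changes of 0.52 (standard error 0.12, adjusted p = 0.0412) and 0.58 (standard error 0.11, adjusted p = 0.0108). Itga5, the fibronectin receptor subunit, rose by 0.40 on the log2 scale from 73.3 and 72.6 CPM to 95.7 and 97.1. Of the 12 calls, 2 (Itgb6 among them) held with each of the 4 libraries left out in turn. The number called was 6 without either DMSO library and 4 without either SFN library.

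After 1 h or 6 h of stress no member differed between SFN and DMSO in edgeR's test, against 0.0923% of all genes tested at 1 h and 0.041% at 6 h. At each time 4 members had an unadjusted p under 0.05. DESeq2 called 1 at 1 h and 0 at 6 h, against 0.251% and 0.108% of all genes tested. The absence of calls depended on the fit of all 16 libraries. With only the libraries compared, members were called at both times, with 4.95% of all genes tested at 1 h and 0.623% at 6 h. Their numbers are given under the dependence on processing. At 6 h Itgb6 was at 15.6 and 13.0 CPM with DMSO and at 16.7 and 15.3 with SFN, and Lamb3 at 506 and 531 and at 497 and 506. The groups overlapped for Itgb6 and lay next to each other for Lamb3. Whether the effect of SFN itself changed between isosmotic cells and 6 h of stress was tested as an interaction, which called 3 members, all higher, against 0.759% of all genes tested (0.595% higher and 0.164% lower). Among them were Itgb6 (1.51 on the log2 scale) and Lama3 (0.72). Lamb3 had an interaction of 0.64 with an adjusted p of 0.107. Of the 3 calls, only that of Itgb6 held with each of the 8 libraries left out in turn. The number called was 1 without either 6 h DMSO library, without isosmotic DMSO replicate 1, without 6 h SFN replicate 1 or without isosmotic SFN replicate 2.

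**Figure D2:**
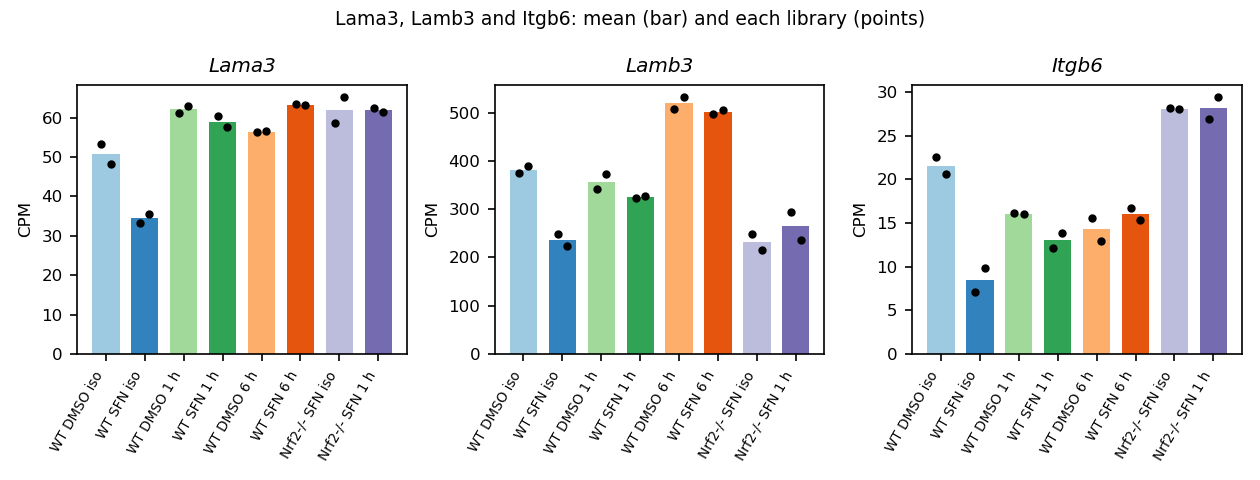
CPM of Lama3, Lamb3 and Itgb6 in each of the 8 groups (bar, mean of 2 libraries; points, each library). In isosmotic WT cells the SFN libraries are below the DMSO libraries in all 3 panels, while at 6 h the SFN and DMSO libraries of Lamb3 and Itgb6 lie side by side.

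Regions upstream of a RefSeq start are shown for Itgb6 and Lamb3, genes called for SFN above. Each region holds the letters of a binding motif that the study's question concerns. For Itgb6 this is TGACNNNGC, the core of the element bound by Nrf2 with small Maf proteins. For Lamb3 it is TGGAAA, the core of the element bound by Nfat5, the osmotic stress factor. Each gene has another RefSeq window, chr2:60673644-60673943 for Itgb6 and chr1:193301993-193302292 for Lamb3, with a match to neither motif. Motifs were searched on both strands in windows of 250 bases before RefSeq starts. The matches are in capitals, and sequences run 5′ to 3′ on the strand of the gene. Bases of annotated exons at the end of each window were left out, leaving 210 bases for Itgb6 and 249 for Lamb3. The end of a stretch is therefore not the RefSeq start. The Itgb6 match ends 6 bases before the end of its stretch, and the Lamb3 match 131 bases before the end of its own. The Lamb3 stretch lies within the gene as GENCODE draws it (chr1:193207699-193343878), whose annotated start is further upstream.
Itgb6, chr2:60722644-60722853, minus strand: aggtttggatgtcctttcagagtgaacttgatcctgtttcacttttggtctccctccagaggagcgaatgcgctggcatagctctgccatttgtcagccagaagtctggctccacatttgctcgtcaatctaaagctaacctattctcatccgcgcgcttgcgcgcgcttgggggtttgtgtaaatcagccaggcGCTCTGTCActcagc
Lamb3, chr1:193301744-193301992, plus strand: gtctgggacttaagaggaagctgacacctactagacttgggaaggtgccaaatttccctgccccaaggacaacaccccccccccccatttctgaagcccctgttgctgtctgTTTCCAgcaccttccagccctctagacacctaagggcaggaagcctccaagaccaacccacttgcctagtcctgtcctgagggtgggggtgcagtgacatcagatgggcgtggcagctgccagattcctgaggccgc

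Windows were found for 62 of the 88 genes, 68 windows in all. TGACNNNGC was in 9 of the 68 (13.2%), against 10.2% of all 32851 windows. TGGAAA was in 12 (17.6%, against 18.6%) and TGANTCA, the core bound by AP-1, in 2 (2.94%, against 6.75%). These shares describe letters in a window and are not binding sites.

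Stress for 1 h was compared with isosmotic medium to find the early response. Whether isosmotic cells were kept in culture for as long as the stressed cells was not established here. Stress and a longer time in culture therefore cannot be told apart. The comparisons with SFN use the same isosmotic SFN libraries as the comparison of SFN with DMSO and that of the genotypes. With DMSO, 8 members differed, 7 higher and 1 lower, against 11.2% of all genes tested (7.1% higher and 4.11% lower), so the share among members (11.3% of those tested) was near that of all genes. Among abundant genes, Lama5 (the alpha chain of the laminins of mature basement membranes) and Fn1 rose, and among genes close to silent in isosmotic cells, Col2a1, the collagen of cartilage, stood out. Col2a1 (chr15:97975602-98004695, minus strand) was at 0.119 and 0 CPM in isosmotic cells and at 8.26 and 9.22 after 1 h (log2 fold change 7.17, standard error 0.45, adjusted p = 2.52e-07). With SFN it went from 0.188 and 0.111 to 6.83 and 7.30 CPM, and in Nrf2-/- cells from 0.256 and 0.215 to 4.50 and 5.68. At 6 h it was at 10.8 and 9.08 CPM with DMSO and 8.31 and 9.44 with SFN. In all 5 comparisons with stress the stressed libraries were above the isosmotic ones, and each call held with every library left out in turn.

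Lama5 rose from 671 and 518 CPM to 878 and 913 (log2 fold change 0.59, standard error 0.12, adjusted p = 0.00651) and Fn1 from 2023 and 1683 CPM to 2430 and 2514 (log2 fold change 0.42, standard error 0.11, adjusted p = 0.0275). All stressed libraries were above the isosmotic ones for both genes. Col23a1, a transmembrane collagen, rose from 0.0953 and 0 CPM to 1.18 and 0.901, and Col17a1, Col8a1 and Col9a2 rose to levels below 1 CPM. Itgb2l, a paralog of the leukocyte subunit Itgb2, fell from 2.95 and 1.88 CPM to 0.656 and 0.795, with the limit that reads shared by such paralogs may be split between them. Of the 8 calls, Col2a1 and Col23a1 held with each library left out, and the number called was 3 and 5 without the 1 h replicates 1 and 2 and 4 without isosmotic replicate 2.

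With SFN, 15 members differed after 1 h, 12 higher and 3 lower, against 9.52% of all genes tested (5.94% higher and 3.58% lower). This comparison rests on the isosmotic SFN libraries in which Lama3, Lamb3 and Itgb6 were low. Lama3 rose from 33.4 and 35.6 to 60.3 and 57.5 CPM (log2 fold change 0.77, standard error 0.09, adjusted p = 0.000143). Both stressed libraries were above both isosmotic ones. Itgb4, the partner of alpha 6 in hemidesmosomes, rose from 55.5 and 56.9 CPM to 83.9 and 77.3. The calls for Lama3, Col2a1 and Col23a1 were among 4 that held with every library left out. The number called was 5 without 1 h SFN replicate 1 and 7 without 1 h replicate 2 or either isosmotic SFN library.

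After 6 h of stress, 44 members differed with DMSO, 38 higher and 6 lower, against 45.9% of all genes tested (23.9% higher and 22% lower). The median log2 fold change over the 71 members was 0.48, against 0.05 over all genes tested. Scaling by DESeq2's size factors moved the median of all genes to 0.14 with DMSO and 0.16 with SFN and called 45 and 47 members. Of all genes tested it called 45% and 46.9%. With SFN, 47 differed, 40 higher and 7 lower, against 47.6% of all genes tested (24.7% higher and 22.9% lower), and 33 were called in the same direction with both pretreatments (75% and 70.2% of the respective lists). Most integrin subunits that passed the test were higher: of 16 alpha subunits tested 13 were higher and 0 lower with DMSO, and of 9 beta subunits 4 were higher and 2 lower. With SFN the counts were 14 and 1 for alpha subunits and 5 and 0 for beta subunits. Of alpha subunits called, 7 of 13 with DMSO and 9 of 15 with SFN had means of at least 1 CPM in both groups. Itgax, Itgam, Itgad and Itga8 were at most 0.291 CPM in the 8 WT libraries before 6 h. They passed the filter on low counts through the 6 h groups, so for them only higher was possible. Over all 47 members called with SFN, 32 had means of at least 1 CPM in both groups.

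Itga3 was the integrin alpha subunit that gained most in CPM, from 1034 and 979 to 2551 and 2588 with DMSO (log2 fold change 1.35, standard error 0.11, adjusted p = 2.05e-07). With SFN it went from 941 and 913 to 2312 and 2427 CPM (log2 fold change 1.35, standard error 0.11, adjusted p = 1.73e-07). All 4 libraries at 6 h were more than 2 times as high as any isosmotic WT library. Its partner Itgb1 rose from 1432 and 1425 CPM to 1953 and 1951 with DMSO and from 1298 and 1396 to 2201 and 2045 with SFN, again with no overlap. Itgb1 made up 86.5% to 90.7% of the summed CPM per kb of exon of all integrin beta subunits in the WT libraries.

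Receptors for collagen and fibronectin rose too. Itga2 was at 29.2 and 22.7 CPM in isosmotic cells with DMSO and at 58.4 and 58.9 at 6 h (log2 fold change 1.18, standard error 0.21, adjusted p = 0.000342), and with SFN it rose from 12.3 and 15.9 to 64.3 and 49.2 CPM. Itga5 rose from 73.3 and 72.6 to 124 and 121 CPM with DMSO and from 95.7 and 97.1 to 138 and 147 with SFN. Libraries at 6 h were above the isosmotic ones for both genes and both pretreatments. Itgb3 and Itgb8, beta subunits that pair with Itgav, rose from low levels, Itgb3 from 2.62 and 1.72 to 8.34 and 11.0 CPM and Itgb8 from 6.74 and 6.21 to 25.03 and 18.2 CPM with DMSO. Their log2 fold changes were 2.16 (standard error 0.39, adjusted p = 0.000412) and 1.74 (standard error 0.25, adjusted p = 4.99e-05).

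Integrin subunits known from white blood cells were higher at 6 h, at low levels. Itgax (CD11c) was at 0.0715 and 0.0442 CPM in isosmotic cells with DMSO and at 7.04 and 7.75 at 6 h, and with SFN it went from 0 counts in both libraries to 8.34 and 6.48 CPM, at least 109-fold higher than the level of 3 counts per library. Itgam (CD11b) reached 2.64 and 2.41 CPM with DMSO and 2.17 and 2.43 with SFN, Itgal (CD11a) 1.80 and 1.36 and 1.35 and 1.37, and Itgae 3.13 and 2.50 with DMSO. Itgae had been detected before, at 0.810 and 0.663 CPM in isosmotic cells with DMSO. No isosmotic or 1 h WT library reached the 6 h level of any of these genes. Itgam, Itgax and Itgad lie next to each other on chromosome 7, between 128062640 and 128223816.

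Itgb2, the beta partner of the CD11 subunits, did not pass the test at 6 h, with 0.381 and 0.862 CPM in isosmotic cells with DMSO and 0.869 and 0.741 at 6 h. Of 7 leukocyte markers 2 reached 1 CPM in isosmotic WT cells and 3 at 6 h, with summed levels of 7.65 to 8.62 CPM with DMSO in isosmotic medium and 14.2 to 17.8 CPM at 6 h. Ptprc (CD45), the defining marker, was at most 0.272 CPM in the 8 WT libraries before 6 h and at 4.08 to 5.68 CPM at 6 h, while Lyz2 and Cd3e were at or near 0. Of 7 endothelial markers Pecam1 passed 1 CPM in every 6 h library, at 3.06 to 4.30 CPM, and Kdr was at 0.261 to 1.02 CPM there. The part of these markers in the result was not tested.

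The laminins split at 6 h. Lamb3 rose from 374 and 389 to 506 and 531 CPM with DMSO, and Lamb1, a beta chain of the widespread laminins, from 389 and 389 to 523 and 540. Lamb2, the beta chain typical of mature kidney basement membranes, fell from 81.0 and 80.1 CPM to 57.0 and 56.4 with DMSO (log2 fold change -0.51, standard error 0.12, adjusted p = 0.00231) and from 101 and 95.5 to 55.2 and 56.1 with SFN. None of these groups overlapped.

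Itgb4 and Itgb6 went down with DMSO, Itgb4 from 72.7 and 71.6 CPM to 54.6 and 49.8 (log2 fold change -0.47, standard error 0.10, adjusted p = 0.00159) and Itgb6 from 22.5 and 20.6 to 15.6 and 13.0 (log2 fold change -0.59, standard error 0.16, adjusted p = 0.00592). With SFN Itgb6 rose instead, from 7.05 and 9.82 to 16.7 and 15.3 CPM (log2 fold change 0.92, standard error 0.16, adjusted p = 0.000256). The levels at 6 h were alike, and the isosmotic levels were not. Itgb4 with SFN had 55.5 and 56.9 CPM before and 51.5 and 57.0 at 6 h, which overlapped.

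Among collagens at 6 h, 14 of 32 tested were higher and 3 lower with DMSO, and 15 were higher and 5 lower with SFN. That is 53.1% and 62.5% of those tested, against 45.9% and 47.6% of all genes. Most of the higher ones were scarce. Col24a1, a fibrillar collagen, was at 0.0476 and 0.133 CPM in isosmotic cells and at 5.82 and 5.25 at 6 h with DMSO (log2 fold change 5.87, standard error 0.66, adjusted p = 8.55e-06), and its 1 h libraries were at most 0.130 CPM, unlike those of Col2a1. Col8a1 reached 2.64 and 3.74 CPM, Col11a2 8.37 and 9.11, Col12a1 14.1 and 12.9 and Col16a1 14.7 and 17.2, all above their isosmotic libraries. The abundant Col18a1, at a mean of 724 CPM before and 751 at 6 h, did not pass the test.

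Among the collagen IV chains, Col4a5 rose from 89.9 and 68.0 to 110 and 102 CPM with DMSO (log2 fold change 0.43, standard error 0.12, adjusted p = 0.00893), a call that held with 2 of 4 libraries left out. Col4a1 and Col4a2 passed the test at 6 h with SFN, where they fell by 0.32 and 0.49 on the log2 scale from the raised isosmotic SFN level to 200.5 and 200.4 CPM and to 115 and 117 CPM. With DMSO neither passed. Col5a1, a fibrillar collagen, fell from 22.1 and 20.03 to 11.4 and 9.72 CPM with SFN.

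Of the 21 members that rose under stress from below 1 CPM in any of these comparisons, 4 lie within 10 kb downstream of a gene expressed on the same strand: Col23a1 (8154 bases after Clk4), Col9a3 (1954 bases after Ogfr), Itgae (1266 bases after Ncbp3) and Itgb1bp2 (497 bases after Nono). For Col2a1 that distance was 34049 bases, for Col24a1 138557 and for Itgax 143846. The part of upstream transcription was not tested. Of the 44 calls with DMSO 28, and of the 47 with SFN 32, held with each library left out.

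**Figure D3:**
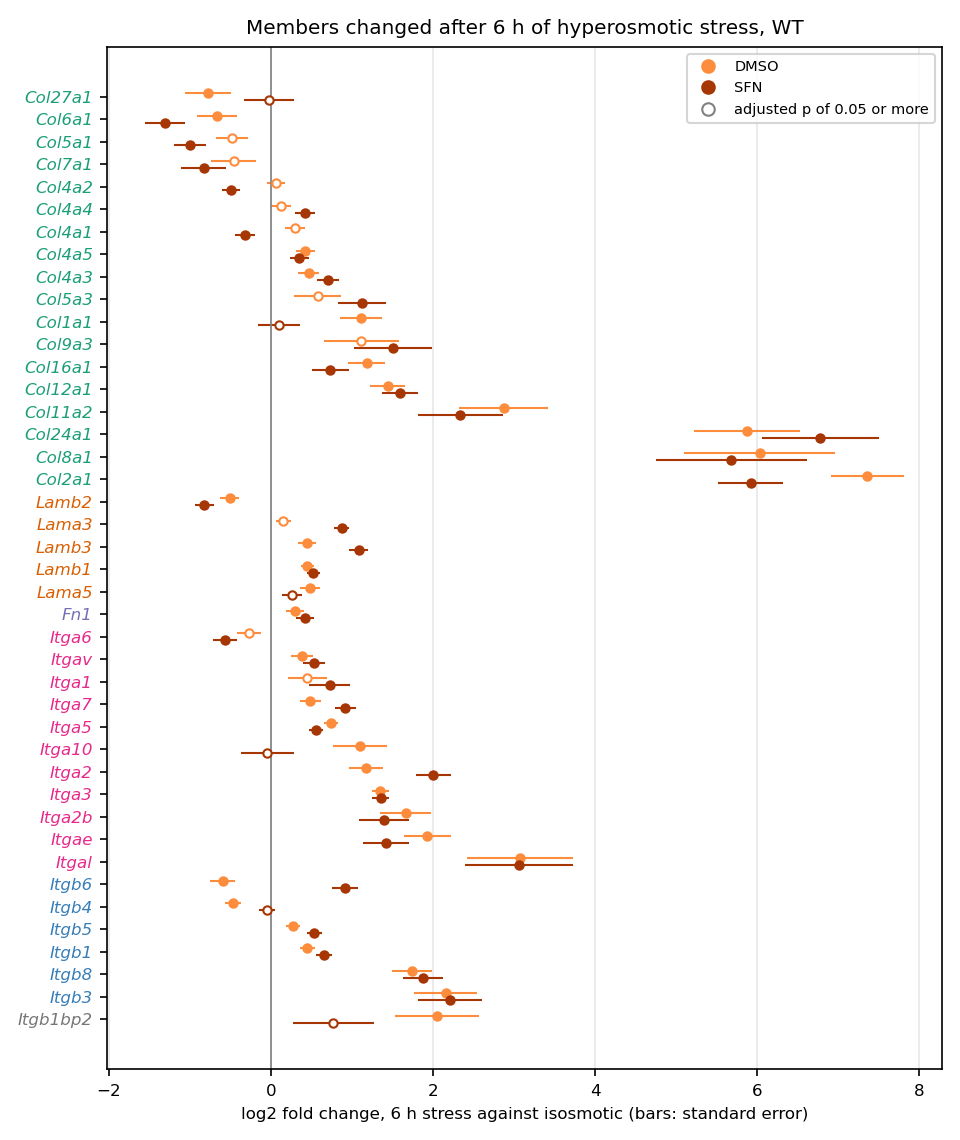
Log2 fold change after 6 h of stress in WT cells for 42 members with at least 1 CPM in a WT group, a call with DMSO or SFN and over 3 counts in every group compared. Points are edgeR estimates, bars standard errors, open points did not pass the test, and label colours give the gene class; most integrin alpha subunits lie right of 0 with both pretreatments.

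Nrf2-/- cells were compared with WT cells under SFN to find which of these genes differed with the genotype. In isosmotic medium 43 of 71 members differed, 25 higher and 18 lower in Nrf2-/- cells, against 34.1% of all genes tested (15.7% higher and 18.4% lower). After 1 h of stress 41 differed, 24 higher and 17 lower, against 31.5% of all genes tested (15.3% higher and 16.2% lower). Col4a1 and Col4a2 were missing from Nrf2-/- cells, their relatives Col4a3 and Col4a4 were 2 to 4 times as high, and the collagen-binding subunits Itga1 and Itga2 were low, while the laminin-binding subunits Itga3, Itga6 and Itgb4 were higher.

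Col4a1 had 0 counts in all 4 Nrf2-/- libraries, against 154 to 271 CPM (median 215) in the 12 WT libraries. In isosmotic cells with SFN, where WT cells had 271 and 230 CPM, it was at least 3020-fold lower than in WT, taking 3 counts per library as the floor. Col4a2 had 0 counts in both isosmotic Nrf2-/- libraries and 4 and 7 counts after 1 h, against 104 to 177 CPM in WT libraries, and was at least 1974-fold lower in isosmotic cells. The genotypes did not come near each other for either gene.

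Col4a3 was at 138 and 125 CPM in isosmotic Nrf2-/- cells and at 33.1 and 36.8 in WT cells with SFN (1.92 on the log2 scale, standard error 0.13, adjusted p = 5.19e-08). Col4a4 was at 108 and 101 against 35.6 and 33.1 CPM (log2 fold change 1.61, standard error 0.12, adjusted p = 1.13e-07). Col4a6 was at 51.1 and 43.0 against 31.5 and 30.02 CPM (log2 fold change 0.61), and Col4a5, at 92.4 and 87.6 against 77.8 and 87.6 CPM, did not pass the test. Libraries of the 2 genotypes were apart for the first 3 genes and next to each other for Col4a5.

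Taken as a family, collagen IV had 626 and 568 CPM in isosmotic WT cells with SFN and 390 and 357 CPM in Nrf2-/- cells, all of the latter from chains 3 to 6, which had 178 and 188 CPM in those WT cells. As shares of the family's summed CPM per kb of exon, Col4a1 held 35.4% to 42.6% and Col4a2 22.2% to 31.3% in the WT libraries, and in isosmotic Nrf2-/- libraries Col4a3 and Col4a5 held 31.1% to 32.2% each.

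**Figure D4:**
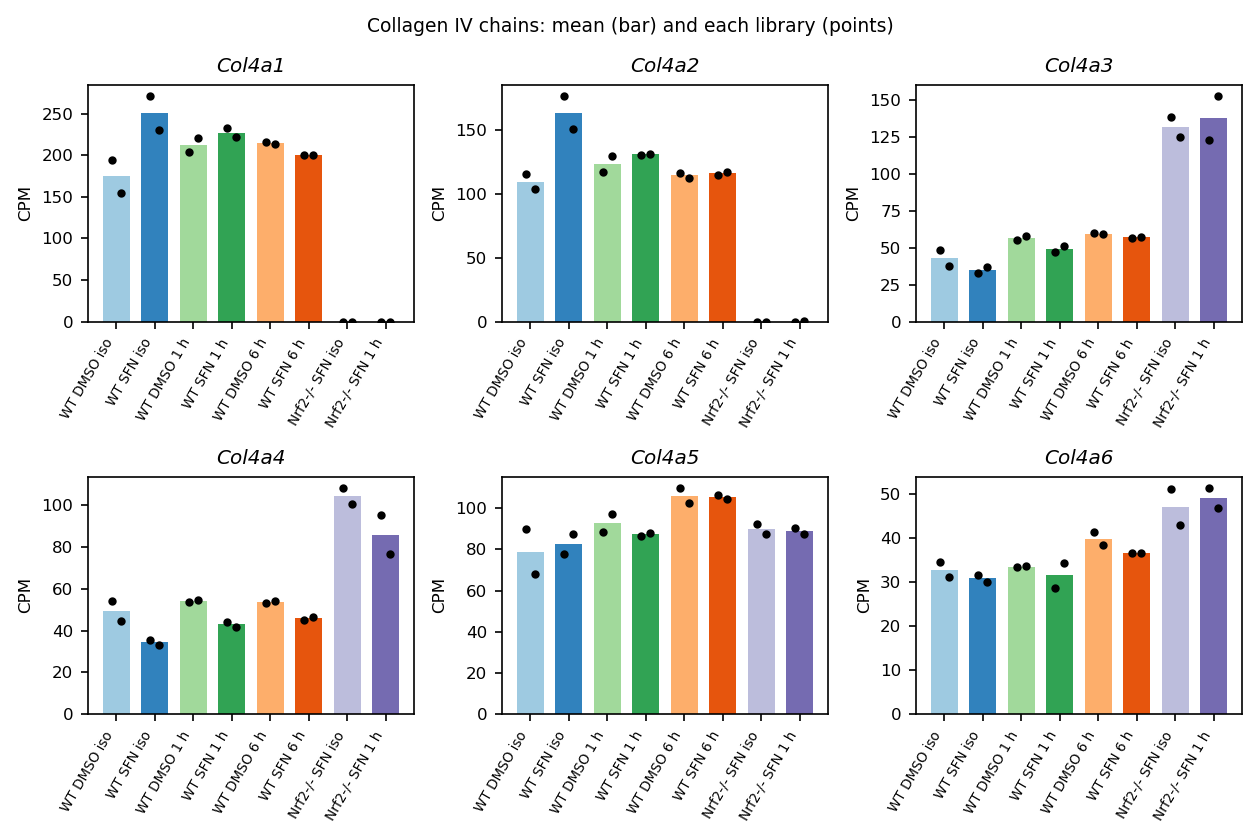
CPM of the 6 collagen IV genes in each of the 8 groups (bar, mean of 2 libraries; points, each library). Col4a1 and Col4a2 are at or near 0 in Nrf2-/- libraries, Col4a3 and Col4a4 are highest there, and Col4a5 differs little between genotypes.

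The genes beside Col4a1 and Col4a2 were read because both were missing together; these neighbours were chosen after values were seen. Within 500 kb, 7 other genes had at least 1 CPM in every WT library, and all 7 kept at least 1 CPM in the Nrf2-/- libraries. Rab20, 4231 bases beyond Col4a2, was at 3.71 to 16.6 CPM in WT and 1.96 to 2.96 in Nrf2-/- libraries. Irs2, on the other side at 189965 bases from Col4a1, was at 43.9 to 173 and 8.27 to 11.9 CPM. Naxd, Cars2, Ing1, Ankrd10 and Arhgef7 overlapped between genotypes or were higher in Nrf2-/- cells. Whether the locus itself is altered in this line was not tested.

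Counted by level, 9 members were below 1 CPM in all 4 Nrf2-/- libraries while at 1 CPM or more in all 12 WT libraries, of 42 members that reached 1 CPM in every WT library. Over all genes this held for 2.39%. Besides Col4a1 and Col4a2 they were Col5a1, Col5a3, Col27a1, Itga1, Itgb3, Itgb7 and Nid2. Col5a1 was at 9.72 to 22.1 CPM (median 15.6) in WT libraries, at 0 counts in both isosmotic Nrf2-/- libraries and at 0 and 0.115 CPM after 1 h. Nid2, the nidogen expressed here, was at 2.20 to 4.88 CPM in WT and at most 0.340 CPM in Nrf2-/- libraries.

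The reverse, below 1 CPM in all WT and at 1 CPM or more in all Nrf2-/- libraries, held for 4 members of the 37 that reached 1 CPM in every Nrf2-/- library, and for 1.06% of all such genes. They were Col6a3, Col6a2, Col11a1 and Col3a1. Col6a3, a chain of the beaded-filament collagen VI, was at 20.1 and 16.4 CPM in isosmotic Nrf2-/- cells and 19.3 and 24.0 after 1 h, and at most 0.0935 CPM in WT libraries. Col6a1, which shares a trimer with it, was at 9.93 and 9.54 CPM in isosmotic Nrf2-/- cells and at 9.52 and 9.17 in isosmotic WT cells with SFN, which lie side by side. After 1 h Col6a1 was called higher in Nrf2-/- cells, and over all libraries it was at 9.54 to 13.8 CPM in Nrf2-/- and 3.02 to 9.52 in WT. Col17a1, the transmembrane collagen of hemidesmosomes, was at 8.65 and 8.11 CPM against 0.107 and 0 in isosmotic cells with SFN (7.45 on the log2 scale, standard error 0.69, adjusted p = 9.87e-07).

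The collagen receptors Itga1 and Itga2 are neighbours on chromosome 13, 20996 bases apart. Itga2 was at 12.3 and 15.9 CPM in isosmotic WT cells with SFN and at 1.19 and 1.67 in Nrf2-/- cells (log2 fold change -3.30, standard error 0.26, adjusted p = 1.63e-07), and Itga1 at 4.80 and 5.54 and at 0.370 and 0.188 (log2 fold change -4.21, standard error 0.36, adjusted p = 4.05e-07). No library of either genotype entered the range of the other for these genes. Itga10, another collagen-binding subunit, was at 2.36 and 2.53 CPM in Nrf2-/- against 3.73 and 4.30 in WT cells and did not pass the test (adjusted p = 0.111). Pelo, which overlaps Itga1 on the same strand and so may share its reads, was at 4.87 to 11.1 CPM in WT and 2.12 to 2.77 in Nrf2-/- libraries.

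Itga5 was also lower, at 45.1 and 46.2 CPM in Nrf2-/- against 95.7 and 97.1 in WT cells (log2 fold change -1.08, standard error 0.09, adjusted p = 2.83e-07), while its ligand Fn1 was higher, at 3076 and 2937 against 1594 and 1720 CPM (log2 fold change 0.86, standard error 0.11, adjusted p = 3.19e-05). The groups were apart in both.

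Among subunits that bind laminin, Itga6 was at 300 and 287 CPM in isosmotic Nrf2-/- cells and at 140.2 and 148 in WT cells (log2 fold change 1.02, standard error 0.15, adjusted p = 8.17e-05), its hemidesmosome partner Itgb4 at 128 and 111 against 55.5 and 56.9 (log2 fold change 1.08, standard error 0.10, adjusted p = 1.03e-06), and Itga3 at 1685 and 1386 against 941 and 913 CPM (log2 fold change 0.73, standard error 0.11, adjusted p = 8.09e-05). Both Nrf2-/- libraries were above both WT ones each time. Lama3, at 58.7 and 65.2 against 33.4 and 35.6 CPM, rose by 0.84 on the log2 scale, but Lamb3, at 249 and 216 against 249 and 224 CPM, did not pass the test and its groups overlapped. Itgb6 was at 28.2 and 28.0 against 7.05 and 9.82 CPM (log2 fold change 1.73, standard error 0.16, adjusted p = 9.19e-07), and Itgb8 at 24.9 and 26.5 against 6.17 and 5.69 (log2 fold change 2.11, standard error 0.25, adjusted p = 1.13e-05).

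These isosmotic levels can be set beside those of WT cells with DMSO, a group that was not compared with Nrf2-/- cells in a test because both drug and genotype differ. Itgb6 had 22.5 and 20.6 CPM there, nearer to the Nrf2-/- level than WT cells with SFN were. Lama3 had 53.3 and 48.3 CPM, against 58.7 and 65.2 in Nrf2-/- cells with SFN. Lamb3, Itga2 and Col27a1, also lowered by SFN, went otherwise, with every Nrf2-/- library below both DMSO libraries. They were at 216 to 294, 0.793 to 1.67 and 0.0537 to 0.255 CPM in the 4 Nrf2-/- libraries, in that order. Itga7 and Itgb5, lowered by SFN too, were called higher in isosmotic Nrf2-/- cells than in WT cells with SFN. Col4a3 and Col4a4, at 48.6 and 37.7 and at 54.0 and 44.5 CPM, were below every Nrf2-/- library.

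After 1 h of stress the contrast between genotypes was called for 39 members in the same direction as in isosmotic medium (90.7% of the isosmotic and 95.1% of the 1 h list). The 1 h comparison rests on the widest pair of libraries: Itga6, for instance, was at 228 and 357 CPM and Hspg2 at 933 and 1488 CPM in the Nrf2-/- replicates. With only the 4 libraries compared, 25 members were called in place of 41, against 10.1% of all genes tested in that fit. Of the 43 isosmotic calls 39, and of the 41 at 1 h 35, held with each library left out, and 46 were called in isosmotic cells when both 1 h Nrf2-/- libraries were removed, an alternative added after the data were seen. The fit without both of them called 46.4% of all genes tested. Of the 12 fibroblast and mesenchyme markers, 3 reached 1 CPM in both libraries of each Nrf2-/- group, and their summed level was 1088 to 1666 CPM in WT and 336 to 485 CPM in Nrf2-/- libraries. Vim and Acta2 were lower in Nrf2-/- libraries, Acta2 at 0.228 to 0.692 against 6.43 to 13.8 CPM, Postn was higher, reaching 2.87 against at most 0.191 CPM, and Cdh2 overlapped, at 181 to 258 against 156 to 240.2 CPM, while Dcn, Lum and Thy1 were at or near 0 in both. Their part in these differences was not tested.

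**Figure D5:**
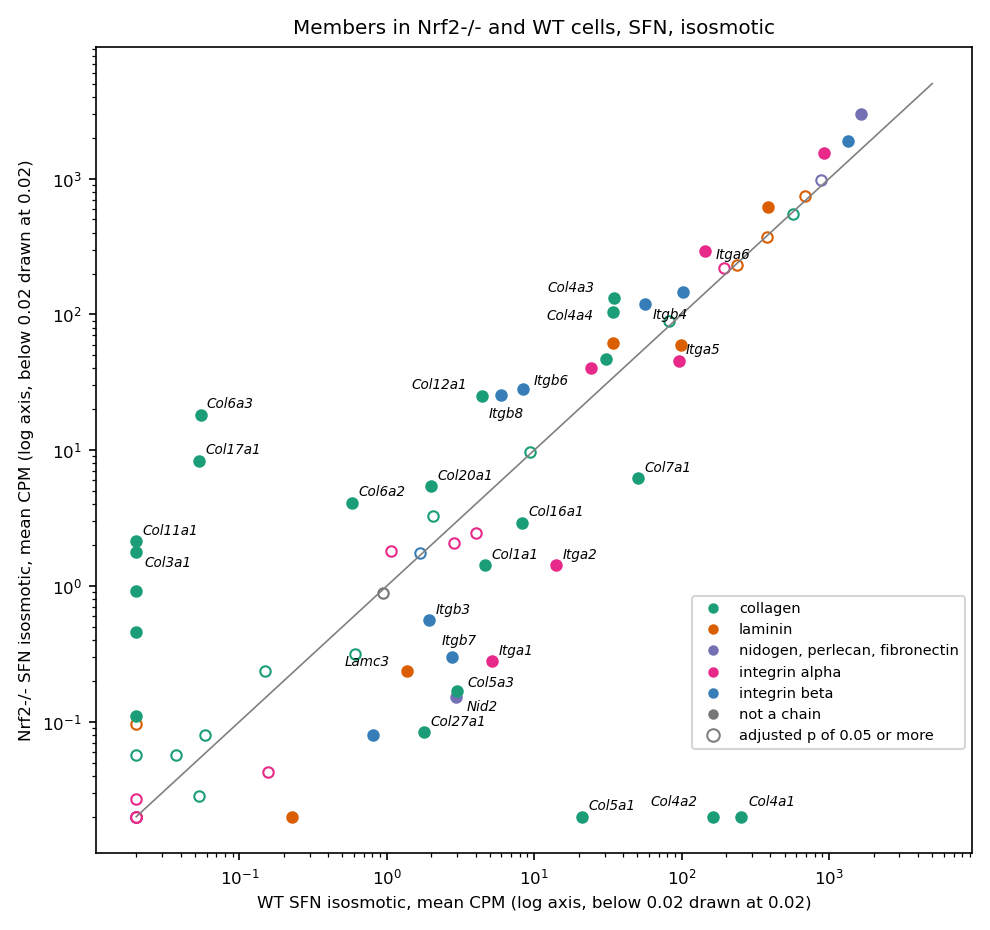
Mean CPM of 70 of the tested members in isosmotic WT and Nrf2-/- cells with SFN on log axes, with means below 0.02 drawn at 0.02 and the line marking equal levels. Filled points passed edgeR's test; Col4a1, Col4a2 and Col5a1 lie on the lower edge, and Col6a3 and Col17a1 are far above the line.

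In Nrf2-/- cells, 1 h of stress changed 6 members, all higher, against 7.17% of all genes tested (4.36% higher and 2.81% lower). Col2a1 was the clearest, with the values given above (log2 fold change 4.42, standard error 0.39, adjusted p = 1.27e-05), followed by Col23a1, from 0.114 and 0.107 to 1.53 and 1.18 CPM. The other 4 (Itgal, Col8a1, Col9a2 and Col4a2) stayed below 1 CPM. Col2a1 alone held with each library left out. The number of members called changed with the library left out, and so did the share of all genes tested that was called. Whether stress acted differently in the 2 genotypes was tested as an interaction, which called 2 members, 1 higher and 1 lower, against 0.123% of all genes tested (0.0615% in each direction). Lama3 was at 58.7 and 65.2 CPM in isosmotic and 62.4 and 61.5 in stressed Nrf2-/- cells, while in WT cells with SFN it rose (interaction -0.77 on the log2 scale, standard error 0.13, adjusted p = 0.0356). For Col4a2 the call rests on 4 and 7 counts. Neither call of this interaction held with each library left out. The number of members called changed with the library left out, as did the share over all genes tested.

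Genes that process, cut, bind or accompany these proteins were read from 4 lists. At 6 h with DMSO the share called was 34.5% of the collagen-modifying enzymes, 53.3% of the proteases and inhibitors, 57.9% of the adhesion complex and 52.5% of the other matrix genes, against 45.9% of all genes tested. Between genotypes in isosmotic cells it was 58.6%, 70%, 60.5% and 72.5% in the same order, against 34.1%. Of 29 tested collagen-modifying enzymes, 6 were higher and 4 lower after 6 h of stress with DMSO, with a median log2 fold change of 0.14 against 0.05 over all genes. Loxl4, a collagen cross-linking oxidase, rose from a mean of 80.7 to 343 CPM. In isosmotic Nrf2-/- cells with SFN 4 were higher and 13 lower than in WT cells, with a median of -0.32 against 0.00 over all genes. Pcolce, which helps remove the ends of procollagen, was at a mean of 8.49 against 82.3 CPM there, and the lysyl hydroxylases split, with Plod1 at 15.2 against 61.2 and Plod2 at 186 against 68.1 CPM.

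Of 30 tested matrix proteases and inhibitors, SFN lowered 4 in isosmotic WT cells and raised 0, among them Adamts1 (a mean of 457 CPM with DMSO and 210.3 with SFN) and Plau, the urokinase (114 and 59.1 CPM). That is 13.3% of those tested, against 2.84% of all genes tested. At 6 h with DMSO 7 were higher and 9 lower, and Plat, the tissue plasminogen activator, rose from a mean of 78.1 to 1424 CPM. In isosmotic Nrf2-/- cells 13 were higher and 8 lower. Mmp14, the membrane-bound collagenase, had no count there, against a mean of 24.0 CPM in WT cells with SFN.

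Of 38 genes of the integrin adhesion complex, 16 were higher and 6 lower at 6 h with DMSO, with a median log2 fold change of 0.24 against 0.05 over all genes. Bcar1 (p130Cas), an adaptor at focal adhesions, rose from a mean of 509 to 1040 CPM, Tns3 from 302 to 1028 and the plakin Plec, which ties Itgb4 to keratin, from 867 to 1720. In isosmotic Nrf2-/- cells 7 were higher and 16 lower, with Tns1 at a mean of 0.171 against 43.0 CPM. With SFN in isosmotic WT cells 1 was higher and 3 lower (10.5% of those tested, against 2.84% of all genes tested).

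Of 40 tested matrix proteins and receptors outside the integrins, SFN in isosmotic WT cells lowered 7 and raised 1. That is 20% of those tested, against 2.84% of all genes tested. Ccn2 (CTGF) fell from a mean of 820 to 291 CPM, Thbs1 from 1099 to 530 CPM, and the receptor Sdc4 from 212 to 126. For Ccn2, Thbs1 and Sdc4, as for Itgb6 and Lama3, the interaction of SFN with 6 h of stress was called (1.84, 1.27 and 1.03 on the log2 scale). At 6 h with DMSO 13 were higher and 8 lower, and in isosmotic Nrf2-/- cells 16 were higher and 13 lower. Sparc, a collagen-binding protein, was at a mean of 10.1 CPM in Nrf2-/- against 297 in WT cells, and Tnc (tenascin C) at 211 against 17.7.

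The remaining comparisons are given for the 4 lists with the share of all genes tested that was called. SFN against DMSO called 0 genes of any list at 1 h or 6 h by edgeR's test, against 0.0923% and 0.041% of all genes tested. After 1 h of stress with DMSO, 1 collagen-modifying enzyme was higher, 1 protease was higher and 2 lower, 1 adhesion gene was higher and 2 lower, and 2 other matrix genes were higher and 2 lower. That is 3.45%, 10%, 7.89% and 10% of those tested, against 11.2% of all genes tested. With SFN the counts were 2 and 1, 5 and 1, 1 and 1, and 4 and 1 in the same order, and in Nrf2-/- cells 1, 2, 0 and 2 were higher and 0 lower. The shares with SFN were 10.3%, 20%, 5.26% and 12.5%, against 9.52% of all genes tested. In Nrf2-/- cells they were 3.45%, 6.67%, 0% and 5%, against 7.17%. At 6 h with SFN the counts were 6 higher and 8 lower, 11 and 5, 14 and 3, and 15 and 7. That is 48.3%, 53.3%, 44.7% and 55% of those tested, against 47.6% of all genes tested. Between genotypes at 1 h the counts were 5 higher and 9 lower, 12 and 7, 7 and 14, and 13 and 10. That is 48.3%, 63.3%, 55.3% and 57.5% of those tested, against 31.5% of all genes tested. The interaction of SFN with 6 h of stress was called for 0, 2, 1 and 4 genes, all higher. That is 0%, 6.67%, 2.63% and 10% of those tested, against 0.759% of all genes tested. The interaction of genotype with 1 h of stress was called for 1 protease, Mmp14 (3.33% of that list, against 0.123% of all genes tested).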

How the data were processed

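RNA-seq of mIMCD3 cells was read from 1 table of raw gene counts per library, as deposited by the authors. The labels and the study name mIMCD3 as the cells, while the extraction protocol in the labels speaks of primary TEC. Per the submitters' processing notes the tools were Bowtie2, SAMtools and featureCounts with mm10, while the study's methods name Hisat2, so the aligner is uncertain. Whether counting used strand is not given in the sources used here, and Lamb3, Col18a1, Nid2, Itga7, Itgae and Itgb2l overlap genes on the opposite strand. Counts from 1 to 10 were even in 58.0% to 68.5% of cases per library, so counts may not be independent fragments.

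All 16 libraries entered 1 fit in edgeR 4.0.16 (R 4.3.3) with a coefficient for each of 8 groups, TMM scaling, edgeR's filter on low counts (19509 genes left) and the robust quasi-likelihood test. Adjusted p-values are Benjamini-Hochberg over all genes tested, with calls below 0.05. The standard error is the log2 fold change over the root of F. A group at 0 was set to 3 counts per library for bounds, which cover counting error only. Alternatives were DESeq2 1.42.0, its size factors, no filter, fewer libraries, a replicate block and leaving out each library. The fit was tested on simulated data.

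Genes named were mostly members at 1 CPM or more in a group, foremost those with the lowest adjusted p, the highest levels per kb, and check genes. Some members that did not reach 1 CPM in both libraries of any group, such as Col9a2, Itgad and Itgb2, were named too. Members and lists were chosen with earlier results of these data known. Gene positions are from GENCODE M21 and sequences from RefSeq (GRCm38.p6). Some genes are counted among the members and in the marker lists but are not reported here.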

Additional observations from a re-analysis of the deposited data

Results flagged for a closer look

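Differences between groups in the effect of a treatment are given where they passed edgeR's test of the interaction itself, 2 for SFN with 6 h of stress and 2 for genotype with 1 h of stress. The effect of SFN at 6 h exceeded that in isosmotic WT cells by 1.51 on the log2 scale for Itgb6 (standard error 0.22, adjusted p = 0.00283) and by 0.72 for Lama3 (standard error 0.13, adjusted p = 0.0164). In both genes the isosmotic SFN libraries were below every other WT library, and the 6 h libraries of both pretreatments lay close together. The effect of 1 h of stress in Nrf2-/- cells exceeded that in WT cells with SFN by 5.94 on the log2 scale for Col4a2 (standard error 0.96, adjusted p = 0.03), a value that rests on 4 and 7 counts against none, and differed by -0.77 for Lama3 (standard error 0.13, adjusted p = 0.0356). The groups hold 2 libraries each, so no test of single libraries far from their group was made.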

How the results depend on the processing

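Of 221 calls of members over the 12 comparisons, 135 held under every alternative and 0 reversed. With only the 12 WT libraries, 22 members were called for SFN in isosmotic cells, 1 for SFN at 1 h, 21 and 29 for 1 h of stress with DMSO and SFN, and 8 for the interaction of SFN with 6 h of stress. Of all genes tested, 15.2%, 0.533%, 22.9%, 18.3% and 4.24% were called there, in the same order. With only the libraries compared, the numbers were 8 for SFN at 1 h, 1 for SFN at 6 h, 15 and 25 for 1 h of stress with DMSO and SFN, 25 for genotype at 1 h, 1 for 1 h of stress in Nrf2-/- cells, 6 for the interaction of SFN with 6 h of stress and 0 for that of genotype with 1 h of stress. The shares of all genes tested were 4.95%, 0.623%, 21.7%, 15.9%, 10.1%, 0.045%, 2.53% and 0%, in the same order. DESeq2 called 1 member for SFN at 1 h, 10 for 1 h of stress in Nrf2-/- cells and 5 for the interaction of SFN. Its shares of all genes tested were 0.251%, 10.3% and 1.81%. Without the filter on low counts, 10 were called for 1 h of stress in Nrf2-/- cells and 4 for the interaction of genotype. That setting called 6.09% and 0.458% of all genes tested. The cause of these changes was not tested.

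Leaving out 1 library at a time gave 4 to 6 members for SFN in isosmotic cells, 0 to 0 for SFN at 1 h and at 6 h, 3 to 8 and 5 to 7 for 1 h of stress with DMSO and SFN, 30 to 40 and 37 to 40 for 6 h with DMSO and SFN, 40 to 41 and 36 to 46 for genotype in isosmotic cells and at 1 h, 2 to 26 for 1 h of stress in Nrf2-/- cells, 1 to 3 for the interaction of SFN and 0 to 15 for that of genotype. A library left alone in its group was assumed to vary like the other groups. The share of all genes tested that was called changed with the library left out too.

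Same-numbered libraries did not deviate together, with 1 of 28 correlations over 0.1 (range -0.0794 to 0.123), so the numbers do not pair them. With the replicate block the interaction of genotype with 1 h of stress had 0 calls in place of 2, against 0.0923% of all genes tested. No other number of calls moved by over 1.5 times. With 2 libraries per group and total counts from 34484296, members below 1 CPM rest on few counts.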

Other observations

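Podxl, a sialomucin of podocytes and other epithelia, was the single podocyte marker of 4 above 1 CPM. It was at 29.0 to 58.0 CPM in WT and 114 to 166 CPM in Nrf2-/- libraries, the same libraries in which Col4a3 and Col4a4 were high. Krt7, a keratin of ducts, was at 158 to 380 CPM in WT and 833 to 1308 CPM in Nrf2-/- libraries, and Pax2, a transcription factor of the developing kidney duct, at 119 to 1146 and 23.6 to 27.5 CPM. Pax2 reached 949 to 1146 CPM in the WT libraries at 6 h and at most 153 CPM in the other WT libraries. These genes were fixed as cell type markers and take part in none of the comparisons above.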
